A study of Mus musculus with 16 samples.

Results

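The genes described here are 10 loci that mark or drive the earliest steps of lymphoid development: Dntt, Rag1, Rag2, Il7r, Ebf1, Pax5, Ikzf1, Ikzf3, Bcl11a and Tcf7. They were taken as a named list, and the chromatin around each was read from ATAC-seq peaks of sorted mouse bone marrow hematopoietic stem and progenitor cells (HSPCs). ATAC-seq uses the transposase Tn5 to cut DNA that is not covered by nucleosomes, so a peak marks a stretch of open chromatin. Peaks of all 16 libraries that overlapped by at least 1 bp were merged into 296215 regions, and 335 of these lay in the body of a member gene or within 20 kb either side of it (mm10, GENCODE M21). All 10 genes had at least 1 region in their window. Rag1 and Rag2 are neighbours with opposite orientation, so their windows overlap and share regions.

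The study asked what the loss of the histone acetyltransferase p300 does to stem and progenitor cells with and without Tet2, an enzyme that oxidizes methylated cytosine. There were 4 genotypes with 4 libraries each. All mice carried floxed Ep300 alleles and received poly(I:C). WT animals had no Cre. P300KO animals carried Mx1-Cre, which is induced by interferon and is not restricted to blood cells, and so lost p300. TET2KO animals were germline Tet2-/- with Ep300 left in place, and P300KO_TET2KO animals combined Mx1-Cre with Tet2-/-. Each library came from the pooled HSPCs of 2 mice of 1 genotype, matched for age. Ages are not given in the labels. Libraries fell into 2 deposit sets, replicates 1 and 2 against replicates 3 and 4, each with all 4 genotypes. The lists of set 1 held 86039 to 110055 peaks and those of set 2 held 130610 to 137335. Accordingly, 91 to 106 of the 335 regions had a peak in a set 1 library and 137 to 151 in a set 2 library, with no overlap between the sets. Peaks with a −log10 q-value of at least 2 numbered 44349 and 69546 in the set 1 WT lists. They numbered 61343 to 92010 in the other set 1 lists and 123710 to 130142 in set 2. The study's methods give a minimum number of reads aimed for per sample, and the number reached in each library is not given in the sources used here. Among the strongest 50000 peaks of each list the difference between sets was gone, with 45 to 50 regions in set 1 and 42 to 53 in set 2.

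Lymphoid priming is the opening and low-level use of lymphoid genes in multipotent cells before they commit. Ikzf1, which encodes Ikaros, and Bcl11a act early, in multipotent and common lymphoid progenitors. Il7r encodes the interleukin 7 receptor chain that these cells need to expand, while Dntt, Rag1 and Rag2 encode enzymes that build antigen receptor genes. Ebf1 and Pax5 are transcription factors that specify and then fix the B cell fate. Ikzf3 encodes Aiolos, an Ikaros relative used later in B cells, and Tcf7 encodes TCF1, a factor of early T cells.

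The sequences at the centre of 5 regions are shown because the results below turn on them. Each is the 201 bases around the median summit over the 16 libraries, on the plus strand of mm10 (GRCm38, RefSeq). Capitals mark any match to 6 strings searched on both strands. These were TGTGGT for Runx factors, CAGGTG for the E-box that E2A binds, and GAGGAAGT for Ets factors with Spi1. The others were AGATAA for Gata factors, TGGGAA for Ikaros, and CCCNNGGG for Ebf. The Ebf1 and Ikzf1 intronic regions were those whose rank fell without p300.
Ebf1 intron, chr11:44881356-44881556: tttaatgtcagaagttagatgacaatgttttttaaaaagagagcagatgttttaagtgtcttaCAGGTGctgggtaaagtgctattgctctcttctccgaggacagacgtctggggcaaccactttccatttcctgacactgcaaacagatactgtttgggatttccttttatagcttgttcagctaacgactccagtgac
Ikzf1 intron, chr11:11690027-11690227: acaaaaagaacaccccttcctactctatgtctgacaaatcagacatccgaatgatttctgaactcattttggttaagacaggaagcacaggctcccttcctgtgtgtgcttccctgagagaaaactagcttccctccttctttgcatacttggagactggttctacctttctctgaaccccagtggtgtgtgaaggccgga
The Dntt intronic regions below are the strongest of that locus and the one whose rank differed most with Tet2.
Dntt intron near the start, chr19:41031139-41031339: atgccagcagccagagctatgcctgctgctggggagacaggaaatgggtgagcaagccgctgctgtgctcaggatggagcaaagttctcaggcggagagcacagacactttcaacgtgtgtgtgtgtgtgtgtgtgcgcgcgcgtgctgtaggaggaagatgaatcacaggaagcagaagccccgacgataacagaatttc
Dntt intron further in, chr19:41039216-41039416: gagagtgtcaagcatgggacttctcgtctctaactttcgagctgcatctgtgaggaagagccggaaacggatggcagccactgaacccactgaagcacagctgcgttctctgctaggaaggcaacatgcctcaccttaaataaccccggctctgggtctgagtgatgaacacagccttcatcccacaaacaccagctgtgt
The last is the strongest region of the Ikzf1 window, which lies downstream of Ikzf1 and inside the neighbouring gene Fignl1.
Ikzf1 downstream, chr11:11788775-11788975: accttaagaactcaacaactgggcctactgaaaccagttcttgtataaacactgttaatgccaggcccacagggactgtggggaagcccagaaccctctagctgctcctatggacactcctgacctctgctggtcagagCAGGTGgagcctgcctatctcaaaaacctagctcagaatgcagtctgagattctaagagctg

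Ebf1 intron and Ikzf1 downstream each held 1 CAGGTG and none of the other strings. The other 3 held none of the 6. Of the 32 member regions in all 16 libraries that lay more than 1 kb from any annotated start, 6 (18.8%) held CAGGTG, against 14.6% of the 22247 such regions in the genome. TGTGGT was in 4 of the 32 (12.5%) against 29.6%, and GAGGAAGT in 4 (12.5%) against 10.04%. TGGGAA was in 3 (9.38%) against 17.4%, AGATAA in 2 (6.25%) against 10.3%, and CCCNNGGG in 1 (3.12%) against 6.78%. A match is a run of letters, which does not show that a factor binds there.

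Of the 335 regions, 43 (12.8%) had a peak in all 16 libraries, a share close to the 13.3% of all merged regions. A further 146 (43.6%) had a peak in 1 library only, against 45.6% of all regions. Ikzf1 held 13 of the shared regions, Bcl11a 8, Dntt 6, Ebf1 4, Tcf7 4, Rag1 3, Ikzf3 3, Rag2 2, Pax5 2 and Il7r none. Per 100 kb of window, Ikzf1 (10.2) and Dntt (8.54) were the most open of the 10 loci. The median over all genes with a region was 3.57. Ikzf3 (2.48), Ebf1 (0.929), Pax5 (0.886) and Il7r (0) lay below that median. The median of the 10 members was 4.92. Among the gene lists described below, it was 7.26 for stem and progenitor, 7.0 for mature B, 7.28 for erythroid and 5.9 for mature T genes. It was 4.925 for early lymphoid partners, 4.725 for mature myeloid genes and 2.26 for genes of other tissues. Ebf1 has the longest window, 431 kb. A value of 0 for Il7r does not mean that the gene lacked a peak. It means that none was found in every library.

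Strength was expressed as a rank, the percentile of a peak's −log10 p within its own list, where 100 is the strongest. Over the 43 shared regions the mean percentile ranged from 47.7 to 94.8, with a median of 78.7 against 80.8 for all 39310 shared regions of the genome. The heat map of shared regions shows them by locus and library, and Il7r has no row in it.

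**Figure D1:**
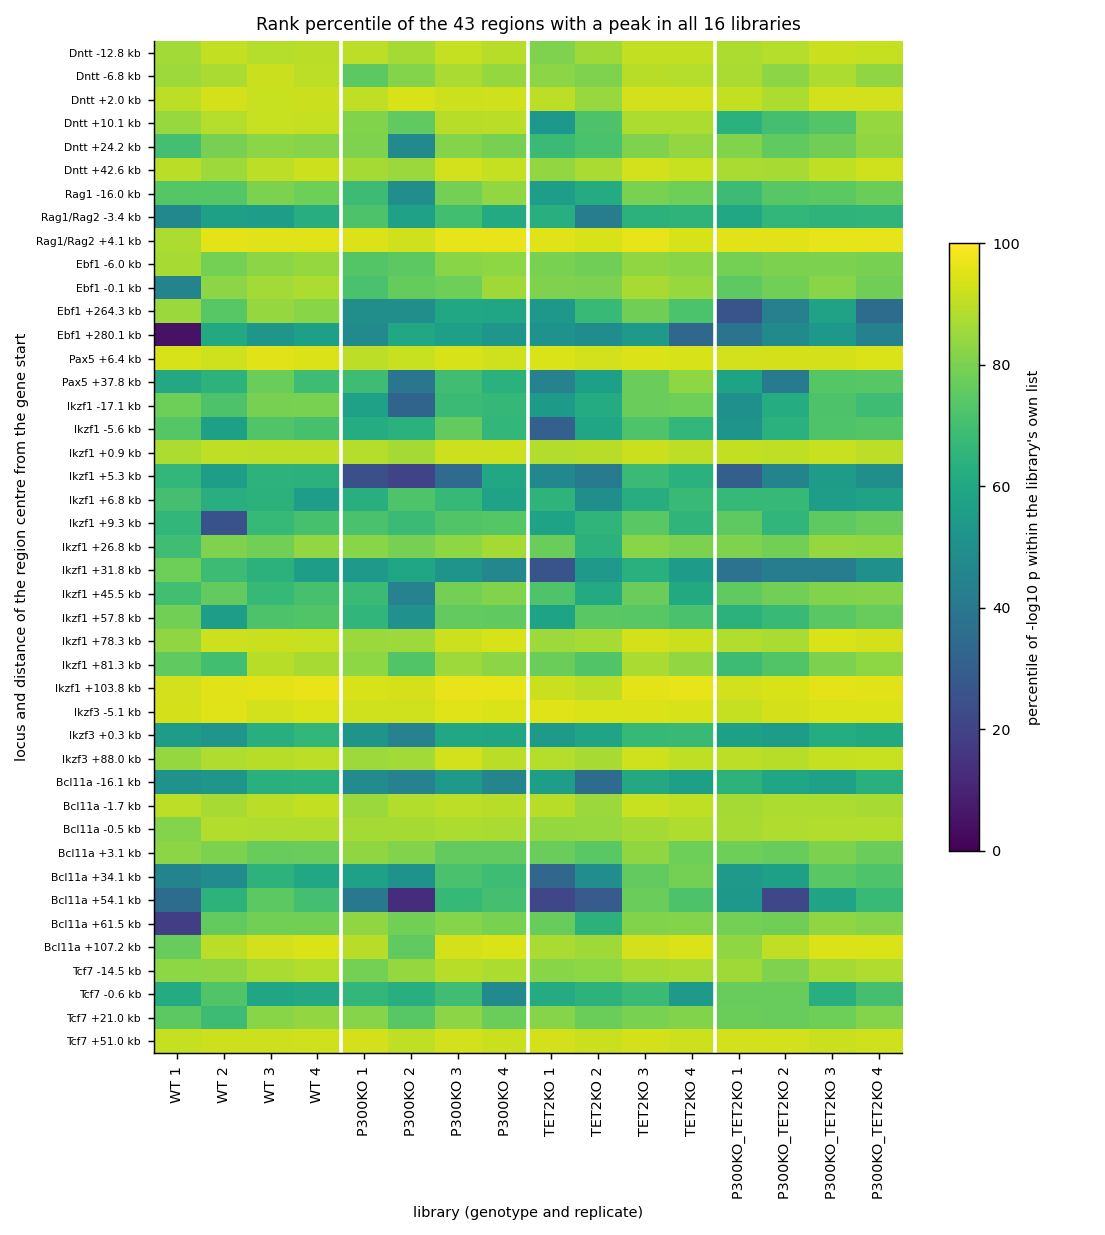
Heat map of the rank percentile (colour, 0 to 100) of the 43 regions with a peak in all 16 libraries, by locus and distance of the region centre from the gene start in kb (rows) and by library (columns, white lines between genotypes). The bright rows include the Rag1/Rag2, Pax5 and Ikzf1 downstream regions with mean percentiles of 94.8, 93.5 and 94.6, and the Ebf1 row at +264.3 kb darkens in the P300KO and P300KO_TET2KO columns.

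The promoters of 6 of the 10 genes had a peak within 1 kb of an annotated start in all 16 libraries, against 63.7% of all protein-coding genes. These were Ebf1, Pax5, Ikzf1, Ikzf3, Bcl11a and Tcf7. Among the strongest 50000 peaks only Pax5, Ikzf1 and Bcl11a kept a promoter peak in all 16, 3 of 10 against 57.6% of all genes. The recombination and receptor genes were less uniform, with Rag1 in 15 libraries, Il7r in 14, Rag2 in 1 and Dntt in none. A missing peak means that none passed the caller's threshold, and not that the site was closed.

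Dntt encodes terminal deoxynucleotidyl transferase, which adds random nucleotides where antigen receptor segments are joined. Its promoter had no peak in any library, yet 6 of its 19 regions were shared by all 16. The strongest (chr19:41030864-41031679, intron) lay 1479 bp from the start, with a mean percentile of 91.4. Its group means were 91.8 ± 1.46 for WT and 92.3 ± 1.46 for P300KO (SD, n = 4). They were 90.3 ± 4.12 for TET2KO and 91.2 ± 2.67 for P300KO_TET2KO (SD, n = 4). The other 5 shared regions lay 6131 to 41907 bp from the nearest Dntt start, and 2 of them were exonic regions nearer to a start of the neighbour Opalin.

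The Rag genes encode the recombinase that cuts antigen receptor genes. The strongest region in their windows (chr2:101628367-101629241) had a mean percentile of 94.8 and lay at a start of B230118H07Rik, a gene that overlaps the locus. It was 3621 bp from the nearest Rag start. The Rag1 promoter region (chr2:101649261-101649837) had a peak in 14 libraries with a mean percentile of 46.2. A Rag2 promoter region was found in 1 P300KO_TET2KO library. Which gene the shared region serves cannot be told from these data.

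Il7r was the least open locus, with 7 regions. Its promoter region (chr15:9529520-9530382) was missing in WT replicate 1 and P300KO replicate 2 and otherwise stood at a mean percentile of 73.5. It was found in 3 WT, 3 P300KO, 4 TET2KO and 4 P300KO_TET2KO libraries, and the strongest other Il7r region in 9 of 16.

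Of the B cell factors, Pax5 was open at an internal start (chr4:44703357-44704869) at a mean percentile of 93.5, where the strongest other region reached 63.8. Ebf1 was open at its start (chr11:44616866-44617479) at 78.8 and upstream of it (chr11:44610738-44611905) at 80.5. Ikzf3 had a promoter peak of middling rank (chr11:98545286-98546233, 58.4), and the strongest region of its window was at the start of Zpbp2 (94.0).

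Ikzf1 was open at its promoter (chr11:11685320-11686466, 90.1) and downstream (chr11:11788474-11789196, 94.6). Bcl11a was open at its promoter (chr11:24076927-24078154, 86.9) and at an intergenic region 42392 bp from the nearest Bcl11a start (chr11:24184771-24185658, 89.4). Tcf7 had a promoter peak at 64.6 (chr11:52282644-52284605), and the strongest region of its window was the Skp1a promoter (92.5).

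The label of the sorted cells was compared with marker genes. Promoters of 11 of 12 stem and progenitor markers had a peak in all 16 libraries, and the other, Ly6a, had one in 15. So had 15 of 15 early lymphoid partner genes, which include Flt3, Tcf3, Mef2c, Satb1 and Foxo1. The same was counted for 6 of 10 mature B genes and 4 of 6 erythroid genes, shares close to the 63.7% of all protein-coding genes and to the members' own 6 of 10. It was counted for 5 of 11 mature T genes, 2 of 7 mature myeloid genes and 2 of 7 genes of other tissues. Ms4a1 (B), Themis (T) and Ly6g (neutrophil) had no promoter peak in any library, and Cd79a had one in 4. Mature B promoters open per library ranged from 6 to 9 of 10 with p300 and from 6 to 8 without, and mature T promoters from 5 to 9 and from 5 to 10 of 11. The part that admixed cells play in the results below was not tested. In pooled cells, fewer cells with an open site and less opening per cell cannot be told apart.

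The number of open regions per locus was then compared between genotypes. The p300 effect is the mean of P300KO_TET2KO minus TET2KO and P300KO minus WT, and the Tet2 effect is defined likewise. Each was tested with a two-sided exact permutation of labels within the other gene's background and deposit set, over 20247 genes. Of the 10 members, 1 differed for p300 at an unadjusted p under 0.05, against 5.09% of all genes and 1.83% that were lower in that direction. That member was Ebf1. No gene in the genome reached an adjusted p under 0.05. The smallest p the design allows is 0.00154, so over 20247 genes none could pass unless many others also had that p. None of the 10 differed for Tet2, against 4.69% of genes. The single contrasts of 4 against 4 libraries were tested over all 70 arrangements, without regard to deposit set, so the spread between sets stands in the test. None of the 10 had an unadjusted exact p under 0.05 in P300KO_TET2KO against TET2KO, against 0.474% of genes, nor in P300KO against WT, against 0.286%. With labels exchanged within sets only 36 arrangements exist and the smallest p is 0.0556, so no gene could pass. Ebf1 then had an exact permutation p of 0.0556 in P300KO_TET2KO against TET2KO, where it was 0.343 over the 70 arrangements, and of 0.111 in P300KO against WT, where it was also 0.343.

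**Figure D2:**
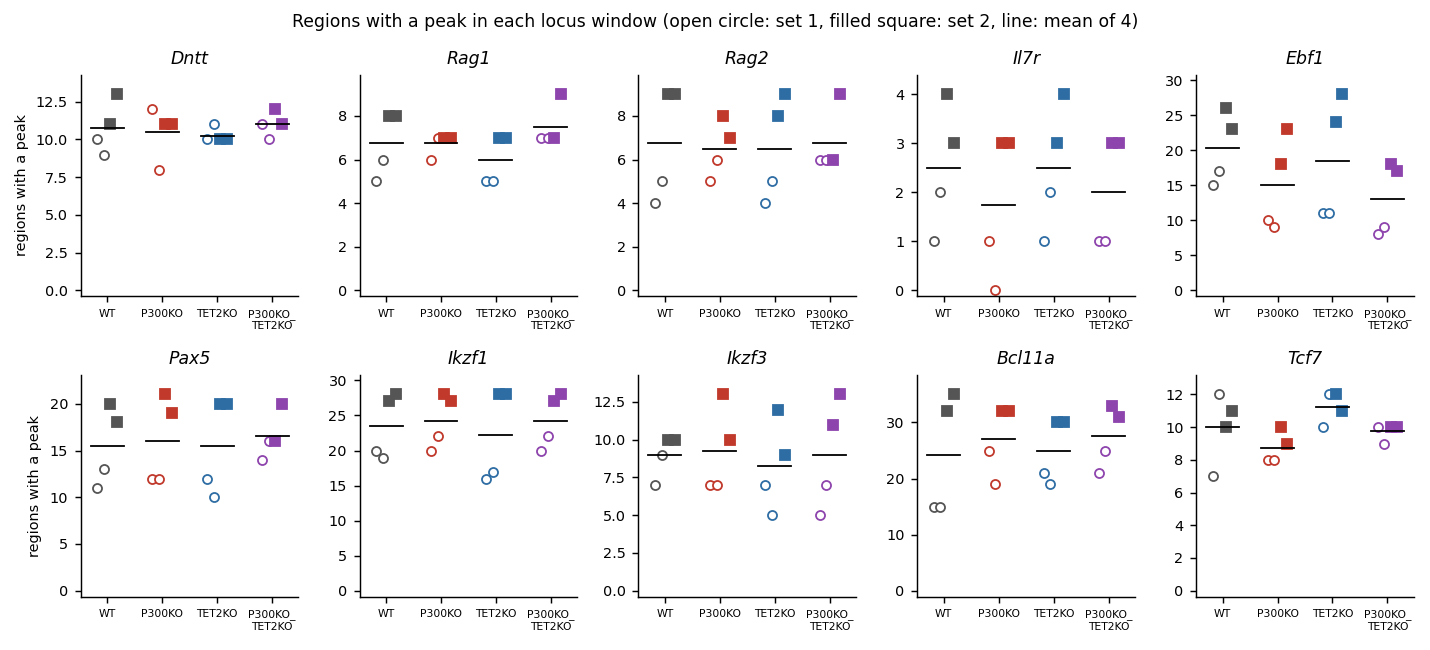
Number of regions with a peak in each library (y axis) by genotype (x axis) for the 10 loci, with an open circle for set 1, a filled square for set 2 and a line for the mean of 4 libraries. Set 2 libraries hold more regions than set 1 at most loci, and at Ebf1 the 4 set 1 libraries without p300 (8 to 10 regions) lie under the 4 with p300 (11 to 17).

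Ebf1 had fewer open regions when p300 was lost. The WT libraries had 15, 17, 26 and 23 regions, and the P300KO libraries had 10, 9, 18 and 23. The TET2KO libraries had 11, 11, 24 and 28, and the P300KO_TET2KO libraries had 8, 9, 18 and 17. Within set 1 the libraries without p300 lay below all those with p300, and within set 2 they ranged from 17 to 23 against 23 to 28. The mean was 14.0 ± 5.66 without p300 and 19.4 ± 6.74 with p300 (SD, n = 8). The difference of −5.38 regions had an exact permutation p of 0.00309, where 0.00154 is the smallest the design allows. The adjusted p over all genes was 0.833. An exact permutation p as low or lower was found for 53 of 20247 genes (0.262%). Among the 10 mature B genes, 7 had a lower mean without p300, 2 a higher one (Ms4a1 and Fcer2a) and Igll1 an equal one, with a median difference of −0.188 regions, against 42.6% lower and 48.2% higher over all genes with a median of 0. The 1 gene with an unadjusted p under 0.05 was Cd79a, a part of the B cell receptor (−1.5 regions, exact permutation p = 0.0401), where 5.09% of all genes had one and 1.83% were lower. Of the 7 mature myeloid genes all 7 had a higher mean without p300, with a median difference of 0.5 regions, and 1 had an unadjusted p under 0.05, S100a8, a neutrophil protein (1.38 regions, exact permutation p = 0.037). Of the 12 stem and progenitor genes 8 were higher and 3 lower, and 1 had an unadjusted p under 0.05, Meis1, a stem cell transcription factor (4.62 regions higher, exact permutation p = 0.00154, the smallest the design allows). Of the 11 mature T genes 6 were lower and 5 higher, and none had an unadjusted p under 0.05. The part of any of these cell types in the Ebf1 difference was not tested. The Ebf1 difference was −4.50 within set 1 and −6.25 within set 2. With labels exchanged over both sets together the exact permutation p was 0.123. With only peaks of a −log10 q-value of at least 2 the difference was −3.5 regions (exact permutation p = 0.0216). It was then −2.5 in P300KO against WT and −4.5 in P300KO_TET2KO against TET2KO, where all peaks gave −5.25 and −5.5. The p300 effect at Ebf1 in Tet2-deficient cells differed from that in Tet2-intact cells by −0.25 regions (exact permutation p = 1).

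Strong peaks were then taken alone. With only the strongest 50000 peaks of each list, WT libraries had 7, 7, 6 and 6 regions and P300KO libraries 3, 5, 4 and 4. TET2KO libraries had 6, 6, 7 and 7, and P300KO_TET2KO libraries 4, 4, 3 and 4. All 8 libraries without p300 lay below all 8 with p300, which was the case for 2 of 18555 genes (0.0108%). The mean fell from 6.5 ± 0.535 to 3.88 ± 0.641 regions (SD, n = 8), with an exact permutation p of 0.00154, again the smallest possible, and an adjusted p of 0.92, where 4.24% of genes had an unadjusted p under 0.05. Equal list length does not make depth or quality equal. Ebf1 was followed further because its count over all peaks differed. The counts, the strong peaks and the ranks below come from the same lists, so they are not independent results.

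The map of Ebf1 shows where these regions were. The start and the region upstream of it kept a strong peak in 7 or 8 libraries of each kind. By contrast, the intronic region at +264.3 kb was among the strongest 50000 peaks in 8 of 8 libraries with p300 and in 1 of 8 without. A neighbour (chr11:44892827-44893554), chosen after its values were seen, was so in 4 of 8 and 0 of 8. Over all peaks, 37 of the 60 Ebf1 regions were found in more libraries with p300 than without, 14 in fewer and 9 in as many. Over all regions of the genome 42.6% were found in more and 34.0% in fewer.

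**Figure D3:**
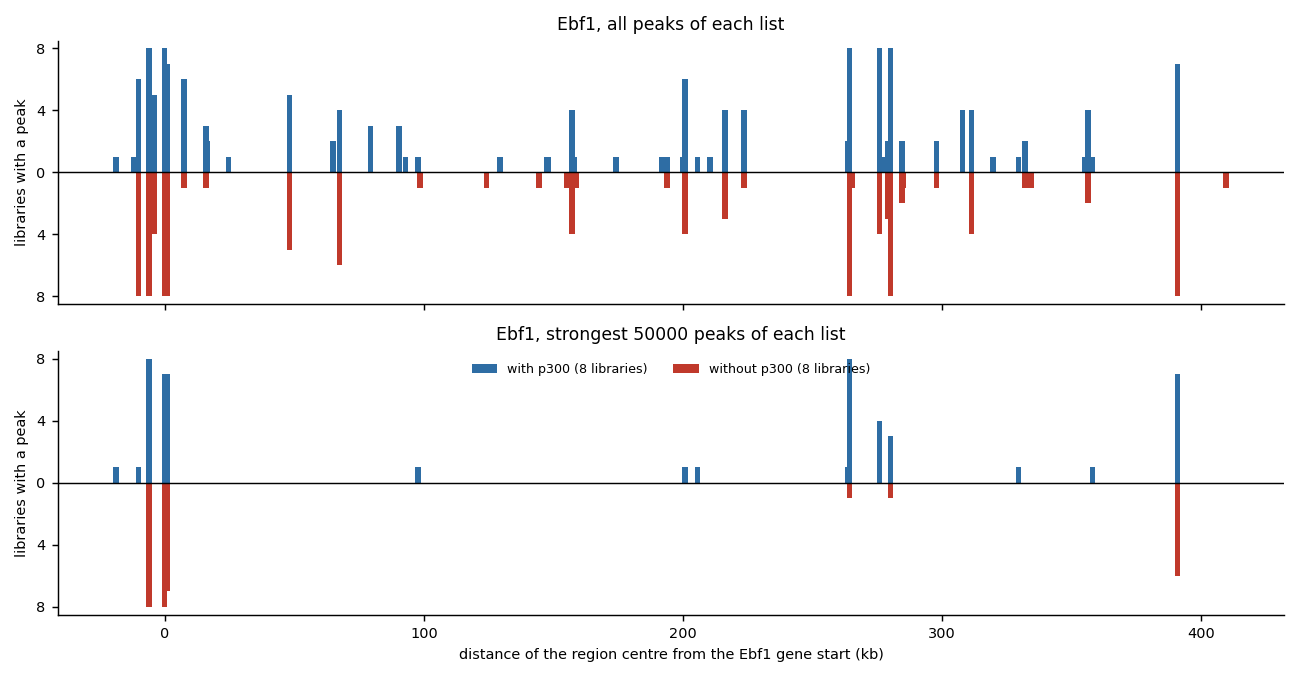
Number of libraries with a peak at each Ebf1 region (y axis, upward in blue for the 8 libraries with p300, downward in red for the 8 without) against the distance of the region centre from the gene start in kb, for all peaks (top) and the strongest 50000 (bottom). In the lower panel the region at the start of the gene (chr11:44616866-44617479) is in 7 libraries with p300 and 8 without. The intronic region at +264.3 kb is in 8 libraries with p300 and 1 without.

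At Dntt the WT libraries had 10, 9, 11 and 13 regions and the P300KO libraries 12, 8, 11 and 11. The TET2KO libraries had 10, 11, 10 and 10, and the P300KO_TET2KO libraries 11, 10, 12 and 11. The 4 genotypes overlapped. The p300 effect was 0.25 regions (exact permutation p = 0.838) and the Tet2 effect was 0 (exact permutation p = 1). The sign of the p300 effect turned among the strongest 50000 peaks (−0.375, exact permutation p = 0.389).

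At the other 8 loci the p300 effect lay between −1.38 regions (Tcf7) and 2.62 (Bcl11a), with an unadjusted p of 0.0617 or more. Bcl11a ranged from 15 to 35 regions in WT alone.

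Ranks of the 43 shared regions were compared in 1 limma model over all 39310 shared regions, with deposit set as a covariate and the percentile turned into a normal score. A score of 0 is the middle of a list, and a difference of 1 is 1 SD of a normal distribution. For p300, 2 of the 43 regions changed at an adjusted p under 0.05, both downward, against 1.19% of all shared regions in either direction and 0.916% downward. The median difference over the 43 was −0.00086 against −1.83e-05 over all regions, with 22 lower and 21 higher. At unadjusted p the count was 9 of 43, against 13.9%.

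The strongest change was in the Ebf1 intron (chr11:44881122-44882046), whose sequence is given above. It lies 264.3 kb into the gene and 30092 bp from the nearest annotated Ebf1 start. In WT its percentile was 85.0, 74.0, 84.3 and 82.4, and in P300KO 49.6, 49.3, 59.5 and 59.0. In TET2KO it was 53.5, 67.6, 78.3 and 71.7, and in P300KO_TET2KO 26.0, 43.7, 57.4 and 35.5. P300KO libraries lay below every WT library, and P300KO_TET2KO libraries were the lowest group, with a mean of 40.6 ± 13.3 (SD, n = 4). In each deposit set every library without p300 was below every library with p300, as was the case for 223 shared regions (0.567%), of which this was the only member region. The p300 difference in normal score was −0.76 ± 0.097 (SE), with an adjusted p of 0.0032 in limma.

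The difference at this region was negative in both Tet2 backgrounds. It was −0.79 ± 0.14 in P300KO against WT (limma adjusted p = 0.042), the only one of the 43 called there, against 0.204% of regions. That call was lost with replicate number as a block (limma adjusted p = 0.0556) and with fold-based ranks (limma adjusted p = 0.173). It was also lost with q-filtered peaks (limma adjusted p = 0.364). Leaving out any 1 WT or P300KO library lost it too (limma adjusted p of 0.0559 to 0.108). The 5 of 16 fits that kept it left out TET2KO replicate 1 or a P300KO_TET2KO library, which are outside the contrast. The difference was −0.72 ± 0.14 in P300KO_TET2KO against TET2KO, which did not pass (limma adjusted p = 0.128). With ranks among shared regions only, the differences at this region were larger and all 3 passed, at −1.31 for p300 (limma adjusted p = 0.00138), −1.33 for P300KO against WT (limma adjusted p = 0.0229) and −1.28 for P300KO_TET2KO against TET2KO (limma adjusted p = 0.038). The difference between the 2 effects was 0.07 ± 0.19 (limma adjusted p = 0.978). The Tet2 effect was −0.39 ± 0.097 (limma adjusted p = 0.124). The adjusted p of the p300 effect stayed under 0.05 when any 1 library was left out (0.00377 to 0.0115 in limma), and was 0.0151 when ranks used fold enrichment. Without the set term it was 0.0781, and within set 1 and set 2 alone it was 0.501 and 0.058 with differences of −0.76 and −0.75.

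The other called region was in the Ikzf1 intron (chr11:11689911-11690609), 3466 bp from the nearest Ikzf1 start. In WT its percentile was 66.3, 56.2, 64.5 and 64.2, and in P300KO 24.4, 20.03, 34.9 and 60.1. In TET2KO it was 46.5, 41.0, 68.2 and 63.8, and in P300KO_TET2KO 30.1, 45.2, 55.4 and 49.9. The groups overlapped, since P300KO replicate 4 reached the WT range. The p300 difference was −0.50 ± 0.11 (SE, limma adjusted p = 0.0376). It was −0.74 ± 0.15 in P300KO against WT (limma adjusted p = 0.0641) and −0.25 ± 0.15 in P300KO_TET2KO against TET2KO (limma adjusted p = 0.889). The difference between the 2 was 0.49 ± 0.21, with an unadjusted limma p of 0.0354 and an adjusted p of 0.945. Leaving out any 1 of 12 of the 16 libraries took the adjusted p above 0.05 (up to 0.0901), and it was 0.0699 with replicate number as a block. It was 0.522 without the set term, and 0.501 and 0.214 within set 1 and set 2 alone. The region kept its call with fold-based ranks, at −0.98 (limma adjusted p = 0.0306), and with ranks among shared regions, at −0.76 (limma adjusted p = 0.0227). Fold-based ranks gave −1.37 in P300KO against WT (limma adjusted p = 0.173).

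**Figure D4:**
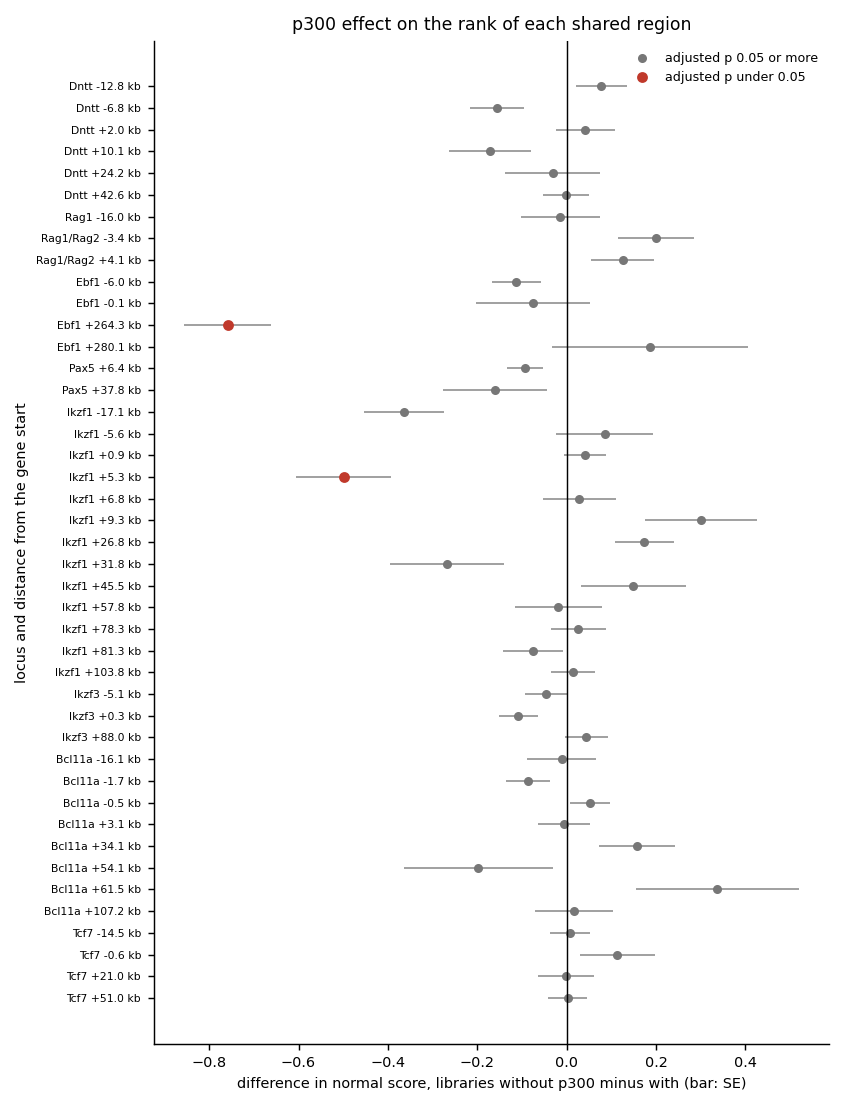
Difference in normal score between libraries without and with p300 (x axis, bars give the SE from limma) for the 43 shared regions (rows, locus and kb from the gene start). The Ebf1 region at +264.3 kb (−0.76) and the Ikzf1 region at +5.3 kb (−0.50), in red, are those with an adjusted p under 0.05, and the rest lie on both sides of 0.

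A further Ikzf1 region upstream (chr11:11667174-11668652), chosen after its values were seen, had a p300 difference of −0.36 ± 0.090 and a limma adjusted p of 0.0709. With ranks taken among shared regions only, it passed for p300 (−0.61, limma adjusted p = 0.0119) and for P300KO against WT (−0.93, limma adjusted p = 0.0229), and 3 of the 43 regions were then called for p300. Another Ikzf1 region chosen in the same way, chr11:11694073-11694494, had a difference of 0.30 ± 0.13 (limma adjusted p = 0.299). The Ikzf1 promoter differed by 0.04 ± 0.047 (limma adjusted p = 0.752).

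For Tet2, none of the 43 regions passed in limma, against 0.277% of all shared regions, and 4 of 43 had an unadjusted p under 0.05, against 11.2%. The lowest was the Dntt intronic region at +10.1 kb (chr19:41039060-41039601). In WT its percentile was 84.5, 88.8, 91.4 and 91.4, and in P300KO 80.9, 75.5, 89.3 and 89.7. In TET2KO it was 53.4, 72.0, 87.6 and 87.7, and in P300KO_TET2KO 63.9, 70.4, 73.3 and 84.0. Within each set the 4 libraries without Tet2 were below the 4 with Tet2, as for 0.229% of shared regions. The Tet2 difference was −0.44 ± 0.093, with a limma adjusted p of 0.0717. It was 0.0326 when ranks were taken among shared regions only. For P300KO_TET2KO against TET2KO none of the 43 passed in limma, against 0.0204% of regions, and 2 had an unadjusted p under 0.05, against 6.31%. For P300KO against WT 9 had an unadjusted p under 0.05, against 13.5%.

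**Figure D5:**
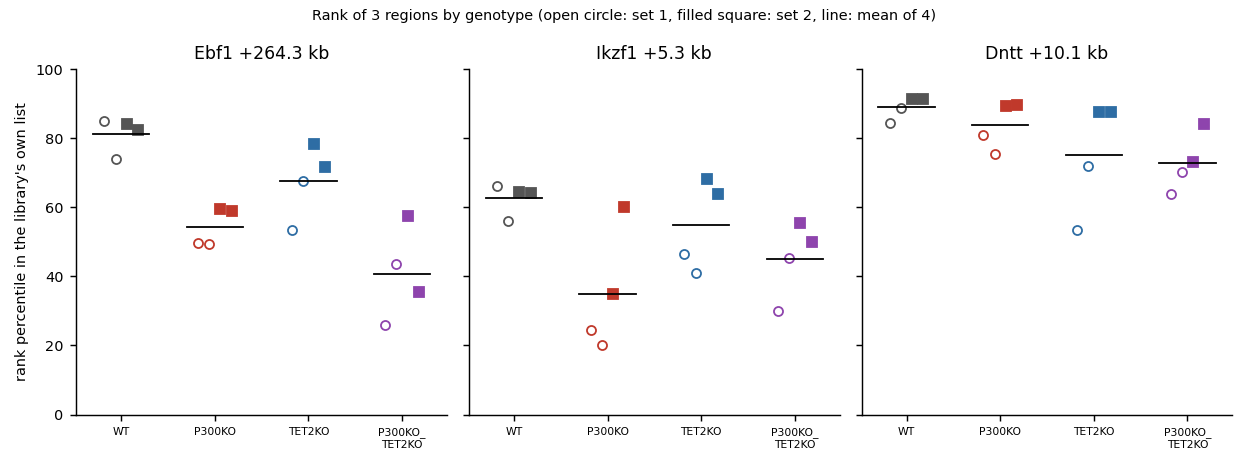
Rank percentile in each library's own list (y axis, 0 to 100) by genotype (x axis) for the Ebf1, Ikzf1 and Dntt intronic regions, with an open circle for set 1, a filled square for set 2 and a line for the mean of 4. At Ebf1 the P300KO and P300KO_TET2KO means (54.3 and 40.6) lie below those of WT and TET2KO (81.4 and 67.8), and at Dntt the TET2KO and P300KO_TET2KO means (75.2 and 72.9) lie below those of WT and P300KO (89.0 and 83.8).

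Gain or loss of a whole region was rare. A region was called lost with a peak in 4 of 4 control libraries and 0 of 4 knockout libraries, and gained in the reverse case. Among 215 member regions with a peak in TET2KO or P300KO_TET2KO, 1 was lost and none gained, against 0.114% of all such regions. This was a further Ebf1 intronic region (chr11:44624609-44625027), 2848 bp from the nearest Ebf1 start, at percentiles of 27.5, 21.9, 18.9 and 43.3 in TET2KO. It had a peak in 2 WT libraries and 1 P300KO library. Among 290 member regions with a peak in WT or P300KO none was gained or lost, against 0.0276%.

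Of the 15 early lymphoid partner genes, 6 had a lower mean region count without p300, 8 a higher one and 1 an equal one. For p300, 1 of the 15 had an unadjusted exact p under 0.05, Tcf12, which was higher, against 5.09% of all genes. For Tet2, 2 of the 15 had one, Tcf12 higher and Lef1 lower, against 4.69%.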

How the data were processed

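Sorted, frozen HSPCs were thawed and processed by Omni-ATAC, 1 library per sample. Per the study's methods and the submitters' processing notes, the authors trimmed reads with cutadapt 1.9.1, aligned them with Bowtie2 2.2.6 to mm10, removed duplicates, shifted reads for Tn5 and called peaks in each library with MACS2 2.1.0. The deposited files are peak lists with the fold enrichment (a ratio) in column 7 and −log10 p-value and −log10 q-value in the columns after it. Lists reached down to a −log10 p of 2.00052 and so hold weak peaks, and ranks within a list (column 8) were used. The members and gene lists were chosen with earlier results of these data known.

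Peaks were merged at 1 bp overlap, and windows ran 20 kb beyond each gene. Region counts were tested by exact permutation (1296 arrangements, or 70 for single contrasts). Ranks were tested with limma 3.58.1 in R 4.3.3 (regions in all 16 libraries, deposit set as covariate) with Benjamini-Hochberg adjustment over all features. Both tests were checked on simulated data. Named regions are each locus' strongest promoter region and strongest other region (a library without a peak counting as 0), the shared regions of highest mean rank, those with adjusted p under 0.05, and those gained or lost. A difference with its p is given for Dntt and for loci with an unadjusted p under 0.05. Replicate numbers are shared across genotypes. The deviations of same-numbered libraries from their genotype means correlated at 0.126 to 0.503 in 24 of 24 pairs. Deviations from the means of each genotype within each set correlated at −0.128 to 0.053. There replicates 1 and 2 give the same value by construction, as do 3 and 4. The shared part thus lay in the set means of the genotypes, for which the model holds 1 set term common to all genotypes. Alternatives were a q threshold, the strongest 50000 peaks, 5 kb windows, 50% coverage, other uses of set and replicate number, fold-based ranks, ranks among shared regions, each set alone and each library left out. Lists were used for the early lymphoid partners and for stem and progenitor, mature B, mature T, mature myeloid, erythroid and other tissue markers.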

Additional observations from a re-analysis of the deposited data

Results flagged for a closer look

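In 48 groups of 4 libraries, 5 had a library whose gap to the others exceeded Dixon's 95% critical value for the ratio of gap to range. All were small whole numbers of regions with the other 3 libraries equal. Such a tie gives a ratio of 1 whatever the size of the gap. The usual rate of about 1 flag in 20 is for continuous values and does not apply to these counts. Dntt had 11 regions in TET2KO replicate 2 and 10 in the other 3. Rag1 had 6 in P300KO replicate 1 against 7, and 9 in P300KO_TET2KO replicate 4 against 7. Rag2 had 9 in P300KO_TET2KO replicate 4 against 6. Tcf7 had 9 in P300KO_TET2KO replicate 2 against 10. The Rag1 and Rag2 windows share regions, so their values in P300KO_TET2KO replicate 4 are not separate.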

How the results depend on the processing

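Ebf1 kept its lower region count without p300 under all 22 alternatives (−6 to −2.62 regions), with p from 0.00154 to 0.123. The number of loci called for p300 was 2 with q-filtered peaks, with 5 kb windows and with 50% coverage, 0 with labels exchanged over both sets, and 1 to 3 with 1 library left out (3 without WT replicate 4 or TET2KO replicate 1, and 2 without WT replicate 1 or 3, P300KO replicate 3, TET2KO replicate 3, or P300KO_TET2KO replicate 1 or 4). For Tet2 it was 1 with q-filtered peaks and 0 to 1 with 1 library left out (1 without WT replicate 2 or TET2KO replicate 4). With the strongest 50000 peaks it was 1 in each single contrast (Ebf1), and with 1 library left out 0 to 1 in P300KO_TET2KO against TET2KO (1 without TET2KO replicate 1) and 0 in P300KO against WT. The number of regions whose rank changed with p300 was 1 with q-filtered peaks, 0 with the strongest 50000 (where the Ebf1 region was not in all 16 lists), 0 without a set term, 0 in set 1 alone and 1 to 2 with 1 library left out (2 only without WT replicate 1 or 4, P300KO replicate 4 or P300KO_TET2KO replicate 2). It was 2 in set 2 alone, but these were Ebf1 chr11:44892827-44893554 and Tcf7 chr11:52268029-52268994, with limma adjusted p of 0.0397 and 0.0416. Ranks among shared regions gave 3 regions for p300, 1 for Tet2, 1 for P300KO_TET2KO against TET2KO and 2 for P300KO against WT. The last contrast gave 0 with q-filtered peaks, the strongest 50000, no set term, fold-based ranks and either set alone. With 1 library left out it gave 0 to 1 (0 without any WT library, without P300KO replicate 1, 2 or 3, or without TET2KO replicate 2, 3 or 4). The 1 region called without P300KO replicate 4 was Ikzf1 chr11:11689911-11690609 (limma adjusted p = 0.026). In the other such fits it was Ebf1 chr11:44881122-44882046. Regions gained or lost numbered 1 in P300KO against WT with the strongest 50000 peaks, and 0 to 2 with 1 library left out (2 without WT replicate 1 and 1 without WT replicate 3). In the other contrast they numbered 1 to 2, with 2 without TET2KO replicate 1 or 3 or P300KO_TET2KO replicate 1 or 2.

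With a replicate block the p300 effect on the Ebf1 region kept its call (limma adjusted p = 0.00585), the number of regions called was 1 for p300 and 0 for P300KO against WT (Ebf1 adjusted p = 0.0556 in limma), and Ebf1 counts had an exact permutation p of 0.0156. No other call changed.

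The sign turned for Dntt counts with p300 among the strongest 50000 peaks (−0.375) and without P300KO replicate 1 (−0.25), for Dntt counts in P300KO against WT with 5 kb windows (0.25), without WT replicate 4 (0.5) and without P300KO replicate 2 (0.583), for Ebf1 counts with Tet2 among q-filtered peaks (1.25), and for the Dntt region at +10.1 kb in P300KO_TET2KO against TET2KO in set 1 alone (0.112). Over single libraries left out, Dntt counts ranged from −0.25 to 0.75 for p300 and from −0.833 to 0.583 for P300KO against WT. The cause of the changes was not tested. Read depth per library is not given in the sources used here, and a presence call depends on it.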
